A study of Mus musculus with 18 samples.

Results

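The 56 genes described here were chosen by symbol for a link to the motile cilium, although some of them also act elsewhere. The pattern took in the Cfap, Rsph, Drc and tektin genes together with Spag6, Spag6l, Spag16, Spag17, Ccdc39, Ccdc40, Ccdc153, Tmem212, Tppp3 and Hydin. They are 56 of the 30172 gene symbols in the deposited values, and every symbol of the pattern was kept, however low its level. The samples were ovaries of wild type C57BL/6J females of the F1 generation, collected at postnatal day 3 (Pd3), Pd7 or Pd21. Their dams had eaten feed with 3% methionine, which raises homocysteine (hyperhomocysteinemia, F1-HHcy), or normal chow (F1-Control), through pregnancy and suckling, and the sires of both groups ate a normal diet. The labels date the start of the diets to 4 weeks ahead of mating, whereas the study's text gives the methionine diet a longer period. Each of the 6 groups of diet and day had 3 libraries of poly-A RNA, which makes 18 libraries. The pups themselves received no treatment other than through their dams, and the diet changes methionine as well as homocysteine. The tissue label and the protocol give whole ovaries as the source of the RNA, although the source name of every sample reads primary cells. The sources do not state how many pups or litters the 3 libraries of a group stand for, so the p-values measure the spread between these libraries.

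A motile cilium is built on an axoneme, a ring of doublet microtubules around a central pair, and dynein motors on the doublets bend it. Radial spokes reach from the doublets to the projections of the central pair, the nexin-dynein regulatory complex links neighbouring doublets, and tektins and other inner proteins line the inside of each doublet. In the female tract, multiciliated cells with many such cilia stand beside secretory cells in the epithelium of the oviduct, whereas most other cells carry a single immotile primary cilium that lacks spokes and a central pair.

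Values are FPKM, which divides the fragments of a gene by its length and by the total of its library, and 3 values in a row are replicates 1, 2 and 3. The libraries held 33630547 to 39399215 fragments on genes, and markers of the ovary were present in every library, with 9 oocyte markers summing to 772 to 2826 FPKM and 5 granulosa markers to 89.7 to 1159 FPKM over the 18 libraries. Differences are F1-HHcy minus F1-Control in mean log2(FPKM + 1), which understates the change of genes near or below 1 FPKM, and SE is their standard error from the model. A value followed by an SE in parentheses is such a log2 difference. Each day was tested on its own with limma, on genes that reached 1 FPKM in 3 or more of its 6 libraries. A call of higher or lower needed both an unadjusted p below 0.05 and a log2 difference larger than 0.58 in either direction. Adjusted p-values follow Benjamini and Hochberg and cover every gene tested on the day. Pd3 and Pd7 formed batch 1 in the labels and Pd21 formed batch 2, so each comparison of diets lay within a batch, while age and batch cannot be told apart where Pd21 is set against an earlier day.

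Before any test, the levels showed 1 group that stood apart. The FPKM of all 56 genes summed to 994, 420 and 602 in F1-Control at Pd21 and to 151, 136 and 149 in F1-HHcy at Pd21. In the 12 libraries of Pd3 and Pd7 the sum lay between 136 and 178. By this sum, the F1-HHcy ovaries of Pd21 were at the level of the earlier days, and the F1-Control ovaries of Pd21 were the only group above it. Much of that level came from genes similar in all groups, such as Cfap20, at 30.5 to 51.1 FPKM over the 18 libraries. For 39 of the 56 genes all 3 F1-Control libraries of Pd21 exceeded all 12 earlier libraries, whereas this was the case for 0 genes in F1-HHcy. For 1 gene, Drc3, all 3 F1-HHcy libraries of Pd21 lay below all 12 earlier libraries. The shares of all genes with such separations were not counted, so whether these counts are unusual is not known. Both age and batch differ between these libraries. In bulk RNA, fewer cells of a type and less RNA per cell cannot be told apart.

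**Figure D1:**
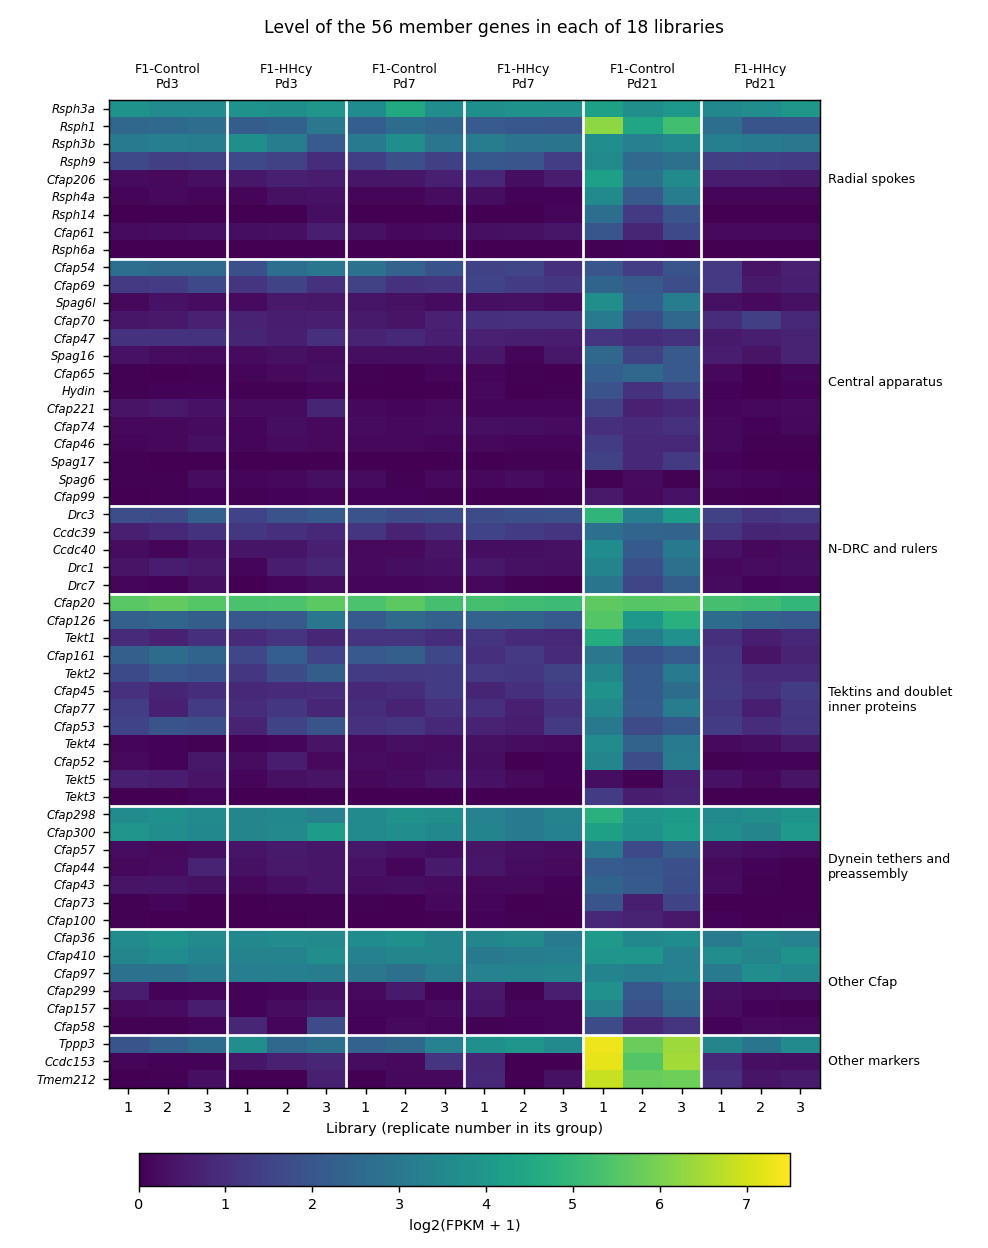
Heat map of log2(FPKM + 1) for the 56 genes (rows, by role) in the 18 libraries (columns, by diet and day). The 3 F1-Control libraries of Pd21 are bright across most rows, and Cfap20, Rsph3a, Rsph3b, Cfap298, Cfap300, Cfap36, Cfap410 and Cfap97 have similar levels in all groups.

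The promoters of these genes are shown because genes of motile cilia often carry an X-box, the site bound by RFX transcription factors. RefSeq windows of GRCm38.p6, from 250 bases before to 50 bases after each annotated start, were found for 46 of the 56 genes (53 windows). The X-box was searched on both strands as GTNNCC, then 0 to 3 bases of any kind, then NGNAAC, and a site that reads as an X-box on both strands was counted once. It was present in 19 of the 53 windows (35.8%), against 5.25% of all 32851 promoter windows of the same length. Among windows of genes later found lower in F1-HHcy at Pd21 the share was 13 of 32 (40.6%), and among those of the other members it was 6 of 21 (28.6%). The forkhead motif GTAAACA was in 3 of 53 windows, or 5.66%, against 3.65% of all windows, and CCAAT was in 34%, against 37.4%. These are matches of letters and no measurement of binding. Of the stretches below, those of Hydin, Cfap206, Tekt2, Cfap45 and Cfap44 match on the opposite strand, so their capitals are the reverse complement of the pattern. Those of Spag16 and Ccdc153 match on the strand of the gene, and that of Cfap298 matches on both. The following stretches show the X-box in capitals with up to 7 bases on each side, 5′ to 3′ on the strand of the gene. They are from a central pair gene (Hydin, chr8:110266949-110266976, plus strand), a second one (Spag16, chr1:69826860-69826887, plus strand), a radial spoke gene (Cfap206, chr4:34730209-34730236, minus strand), a tektin (Tekt2, chr4:126325698-126325724, minus strand), a doublet inner protein (Cfap45, chr1:172521104-172521129, plus strand), a dynein tether (Cfap44, chr16:44394765-44394792, plus strand) and the marker Ccdc153 (chr9:44240537-44240562, plus strand), all of which were lower in F1-HHcy at Pd21, and from Cfap298 (chr16:90934897-90934925, minus strand), which was not called.
Hydin: ctctgcgGTTGCTGTGGCAACagatggt
Spag16: gcaacgcGTTGCCGTAGTAACtgcggac
Cfap206: gcgttccGTTTCCACGGTTACgcgactg
Tekt2: gggggcgGTTGCTCGGCAACcagagcc
Cfap45: ttcttggGTTGCTATGGTAACgcgtc
Cfap44: gagggacGTTGCTATGGCAACcgcagta
Ccdc153: acgtgcaGTATCCAGAAACccaacat
Cfap298: tttgactGTTGCCCCTGGCAACagccact

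At Pd21, 34 of the 42 genes that passed the filter were lower in F1-HHcy and 0 were higher, where 5.06% of all 13350 tested genes were lower and 0.0824% were higher. No member was higher at an unadjusted p under 0.05 whatever the size of its difference, and limma-voom on the recovered fragments called 0 higher as well. An adjusted p under 0.05 was reached by 30 of the lower genes, against 2.23% of all tested genes. Of the 42 genes, 18 passed the filter only through F1-Control libraries and so had to differ, and all 18 of these were called. The other 24 passed with at least 1 library of each diet, and 16 of them were called lower. For some of these the 3 F1-Control libraries alone would have met the filter. Tmem212, for example, reached 1 FPKM in only 1 F1-HHcy library (1.01, 0.351 and 0.446 FPKM). The count of 16 is therefore not free of the filter. The remaining 14 genes were too low for the test, with group means of at most 1.96 FPKM, and 13 of these had a lower mean in F1-HHcy. A fit with no filter took in all 56 genes and called 43 lower and 0 higher, against 3% of its 27810 genes called lower. The mean log2 level was lower in F1-HHcy for 54 of the 56 genes and higher for 2 (Cfap97 and Spag6). Over all 56 genes the median log2 difference was -1.52, beside -0.0039 over all 27810 genes above 0 on that day. The 3 F1-HHcy libraries lay below all 3 F1-Control libraries for 49 of the 56 genes and overlapped with them for 7, where 8.61% of all tested genes lay below.

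**Figure D2:**
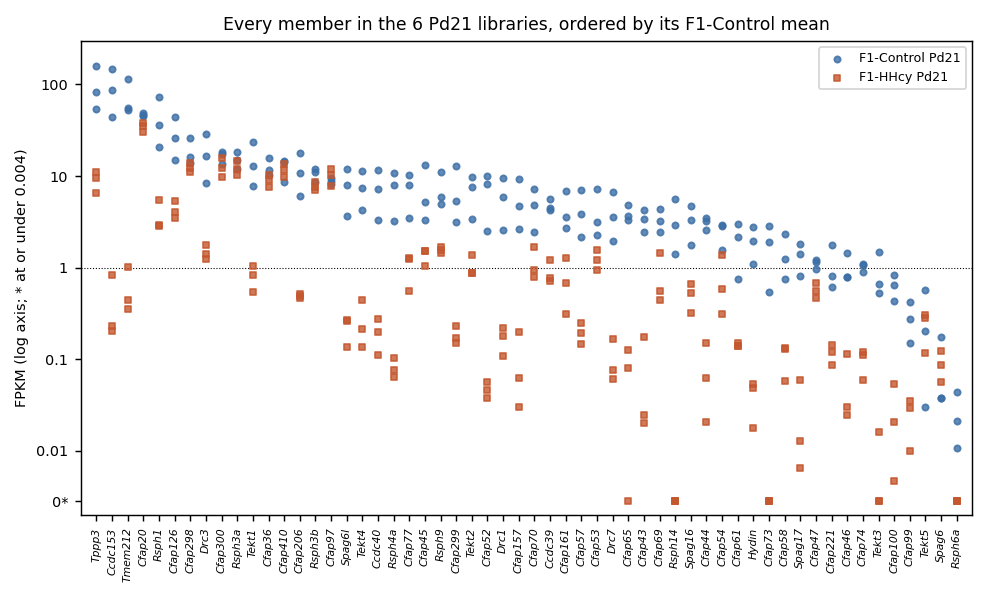
FPKM (log axis) of each of the 56 genes in the 3 F1-Control (circles) and 3 F1-HHcy (squares) libraries of Pd21, ordered by the F1-Control mean, with values at or under 0.004 drawn on the lowest tick. For 49 genes every square lies under every circle, and the dotted line marks the filter of 1 FPKM.

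Radial spokes were represented by 9 genes, of which 7 were tested and 5 were lower. Of the lower genes, Rsph4a, Cfap206 and Rsph14 passed the filter only through F1-Control and so had to differ. Rsph1, a protein of the spoke head, was at 73.2, 20.8 and 36.4 FPKM in F1-Control and 5.50, 2.87 and 2.90 in F1-HHcy. Every F1-HHcy library was below the lowest F1-Control library, and the log2 difference was -3.09 (SE 0.41, adjusted p = 0.00753). Rsph4a, another spoke head protein, was at 10.8, 3.23 and 7.95 FPKM in F1-Control and 0.0760, 0.0640 and 0.104 in F1-HHcy. The F1-HHcy values were near 0 and the groups did not overlap (-2.82, SE 0.34, adjusted p = 0.00564). Cfap206, which sits at the base of a spoke, was at 17.8, 6.04 and 10.9 FPKM in F1-Control and 0.494, 0.517 and 0.463 in F1-HHcy, and it showed the same separation (-2.96, SE 0.32, adjusted p = 0.00365). Rsph14 was at 5.60, 1.42 and 2.94 FPKM in F1-Control and was listed at 0 in all 3 F1-HHcy libraries, so that it was at least 65.5-fold lower when each of these libraries is set to 3 fragments.

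The spoke genes Rsph3a and Rsph3b were different. Rsph3a, a spoke stalk protein, was at 18.3, 12.0 and 14.8 FPKM in F1-Control and 10.3, 11.9 and 14.7 in F1-HHcy, with overlapping groups (-0.27, SE 0.19, adjusted p = 0.9996). Its near copy Rsph3b was at 11.8, 8.66 and 11 FPKM in F1-Control and 8.51, 7.54 and 6.95 in F1-HHcy. All F1-HHcy values of Rsph3b were under those of F1-Control, but the difference was under the size needed for a call (-0.40, SE 0.16, adjusted p = 0.647). Of the 50-base stretches in Rsph3a transcripts, 54.4% also occur in Rsph3b, so how fragments were shared between the pair is uncertain. Rsph6a, known as a spoke protein of sperm, had 7 fragments in all F1-Control libraries of Pd21 together and 0 in those of F1-HHcy, and no fold is given.

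The central apparatus was the group with the most members and with many low ones, since 7 of its 14 genes passed the filter. All 7 were lower in F1-HHcy, and 13 of the 14 had F1-HHcy values below all F1-Control values. Of the 7, Cfap65, Hydin, Spag16 and Spag6l passed the filter only through F1-Control and so had to differ. Spag6l, a protein of the central pair, was at 12.1, 3.69 and 8.03 FPKM in F1-Control and 0.259, 0.137 and 0.268 in F1-HHcy (-2.75, SE 0.34, adjusted p = 0.00564). Hydin, a large central pair protein whose loss causes hydrocephalus, was at 2.80, 1.09 and 1.96 FPKM in F1-Control and 0.0533, 0.0177 and 0.0488 in F1-HHcy (-1.46, SE 0.23, adjusted p = 0.0155). The 2 groups were separated for both genes, and the F1-HHcy libraries held 62 fragments of Spag6l in all against 2277 in F1-Control. Cfap65 was at 3.71, 4.83 and 3.30 FPKM in F1-Control and 0.125, 0.00389 and 0.0799 in F1-HHcy, with its highest value in replicate 2 and not, like most members, in replicate 1 (-2.20, SE 0.18, adjusted p = 0.00146). Cfap69 was at 4.35, 3.24 and 2.47 FPKM in F1-Control and 1.44, 0.443 and 0.551 in F1-HHcy (-1.28, SE 0.26, adjusted p = 0.0434). Cfap54, which stood highest of the central apparatus genes over the 18 libraries, was at 2.91, 1.55 and 2.88 FPKM in F1-Control and 1.37, 0.308 and 0.587 in F1-HHcy. Its groups did not overlap either, and the difference passed the unadjusted threshold (-0.99, SE 0.27, adjusted p = 0.178). The exception was Spag6, the paralog of Spag6l, which shares 0.535% of its 50-base stretches with Spag6l and was at 0.0379, 0.175 and 0.0377 FPKM in F1-Control and 0.123, 0.0860 and 0.0561 in F1-HHcy, with overlapping groups.

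All 5 genes of the nexin-dynein regulatory complex and the doublet rulers were lower, each with an adjusted p under 0.05. Of these, Ccdc40, Drc1 and Drc7 passed the filter only through F1-Control and so had to differ. Drc3, a subunit of the complex, was at 28.9, 8.33 and 16.4 FPKM in F1-Control and 1.78, 1.23 and 1.40 in F1-HHcy (-2.78, SE 0.37, adjusted p = 0.00753). Ccdc39 and Ccdc40 form the ruler that sets the spacing of spokes and dyneins along a doublet. Ccdc39 was at 5.68, 4.47 and 4.23 FPKM in F1-Control and 1.21, 0.715 and 0.762 in F1-HHcy (-1.61, SE 0.19, adjusted p = 0.00480). Ccdc40 was at 11.6, 3.32 and 7.19 FPKM in F1-Control and 0.276, 0.111 and 0.198 in F1-HHcy (-2.68, SE 0.35, adjusted p = 0.00735). The diets did not overlap for either gene, and by the ratio of group means Ccdc40 was 37.7-fold and Ccdc39 was 5.34-fold lower. At the earlier days Ccdc39 lay between 0.584 and 1.85 FPKM and Ccdc40 between 0.0872 and 0.589 FPKM, so the partner with the smaller fold was the one with the higher level outside the F1-Control ovaries of Pd21.

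Tektins and other proteins inside the doublets gave 9 lower genes among 10 tested and 12 in all. Of the lower genes, Tekt4 and Cfap52 passed the filter only through F1-Control and so had to differ. Tekt1, a filament-forming tektin, was at 23.8, 7.79 and 13.0 FPKM in F1-Control and 1.05, 0.536 and 0.833 in F1-HHcy (-3.02, SE 0.34, adjusted p = 0.00450). Tekt4 was at 11.2, 4.24 and 7.41 FPKM in F1-Control and 0.137, 0.214 and 0.447 in F1-HHcy (-2.69, SE 0.30, adjusted p = 0.00406). The F1-HHcy libraries of both tektins were below the lowest F1-Control library by a wide margin. Cfap52, an inner protein of the doublet, was at 9.93, 2.51 and 8.13 FPKM in F1-Control and 0.0374, 0.0466 and 0.0570 in F1-HHcy (-2.75, SE 0.38, adjusted p = 0.00883), a 146-fold ratio of means. Cfap126, also named Flattop, which places basal bodies in multiciliated cells, was at 43.9, 15.0 and 26.1 FPKM in F1-Control and 5.33, 4.04 and 3.51 in F1-HHcy (-2.36, SE 0.34, adjusted p = 0.0103). Its ratio was 6.59-fold, with 918 fragments left in F1-HHcy. Cfap20, the member with the highest mean of this class and a protein found at other microtubules too, was at 48.6, 45.3 and 46.1 FPKM in F1-Control and 38.3, 35.4 and 30.5 in F1-HHcy. The groups did not overlap, but the log2 difference of Cfap20 was too small for a call (-0.42, SE 0.14, adjusted p = 0.326). Tekt5 was at 0.204, 0.0298 and 0.566 FPKM in F1-Control and 0.283, 0.118 and 0.302 in F1-HHcy, with overlapping groups and under the filter.

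Of 7 genes for dynein tethers, modifiers and preassembly, 5 were tested and 3 were lower. Cfap43 and Cfap44 belong to the complex that tethers inner dyneins to the doublet. Cfap43 was at 4.31, 3.38 and 2.46 FPKM in F1-Control and 0.176, 0.0247 and 0.0201 in F1-HHcy (-2.01, SE 0.20, adjusted p = 0.00283). Cfap44 was at 3.44, 3.21 and 2.55 FPKM in F1-Control and 0.149, 0.0627 and 0.0204 in F1-HHcy (-1.91, SE 0.17, adjusted p = 0.00201). Cfap57, an adaptor of inner dyneins, was at 7.11, 2.16 and 3.84 FPKM in F1-Control and 0.251, 0.192 and 0.145 in F1-HHcy (-2.06, SE 0.31, adjusted p = 0.0127). These 3 axonemal proteins had no overlap between the diets, but all 3 passed the filter only through F1-Control and so had to differ. Cfap73 was at 2.87, 0.543 and 1.89 FPKM in F1-Control and listed at 0 in F1-HHcy, which puts it at least 20.6-fold lower at 3 fragments per library. Cfap298 and Cfap300, which help to assemble dynein arms in the cytoplasm, passed with libraries of both diets and were not called. The split between called and uncalled genes of this role is therefore also the split made by the filter. Cfap298 was at 26.1, 14.0 and 16.0 FPKM in F1-Control and 11.1, 12.2 and 13.9 in F1-HHcy (-0.51, SE 0.23, adjusted p = 0.744), with every F1-HHcy library just below the lowest F1-Control library. Cfap300 was at 18.1, 13.5 and 17.3 FPKM in F1-Control and 12.3, 9.75 and 15.5 in F1-HHcy, with overlapping groups (-0.37, SE 0.20, adjusted p = 0.968).

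Of the 6 other Cfap genes, 2 were lower. Cfap299 was at 12.9, 3.13 and 5.40 FPKM in F1-Control and 0.230, 0.151 and 0.169 in F1-HHcy (-2.60, SE 0.39, adjusted p = 0.0119). Cfap157, a protein of basal bodies, was at 9.26, 2.64 and 4.67 FPKM in F1-Control and 0.199, 0.0619 and 0.0303 in F1-HHcy (-2.45, SE 0.34, adjusted p = 0.00883). Neither gene had overlapping groups, and both were near 0 in F1-HHcy. Both passed the filter only through F1-Control and so had to differ. Cfap36, Cfap410 and Cfap97, which passed with libraries of both diets, were not called, and all 3 had overlapping groups. Cfap36 was at 15.6, 10.3 and 11.6 FPKM in F1-Control and 7.63, 10.3 and 9.06 in F1-HHcy (-0.42, SE 0.19, adjusted p = 0.777). Cfap410 was at 14.1, 14.4 and 8.70 FPKM in F1-Control and 11.7, 9.71 and 13.5 in F1-HHcy (-0.06, SE 0.22, adjusted p = 0.9996). Cfap97 was at 9.46, 8.27 and 8.90 FPKM in F1-Control and 7.75, 11.9 and 10.4 in F1-HHcy (0.14, SE 0.18, adjusted p = 0.9996). The 8 tested genes without a call were therefore Cfap20, Cfap36, Cfap97, Cfap298, Cfap300, Cfap410, Rsph3a and Rsph3b. Each of these 8 was at 3.42 FPKM or more in all 18 libraries, whereas the lowest value of a called gene was at most 3.16 FPKM (Cfap126).

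The 3 genes used as markers of multiciliated cells had the highest levels of all members in F1-Control at Pd21. Ccdc153 was at 149, 43.8 and 87.3 FPKM in F1-Control and 0.830, 0.228 and 0.201 in F1-HHcy (-5.92, SE 0.40, adjusted p = 9.55e-04). Tmem212 was at 115, 52.7 and 55.9 FPKM in F1-Control and 1.01, 0.351 and 0.446 in F1-HHcy (-5.49, SE 0.31, adjusted p = 8.28e-04). These were the 2 members with the largest log2 differences, and the ratios of means were 222-fold for Ccdc153 and 124-fold for Tmem212. Ccdc153 passed the filter only through F1-Control and so had to differ. Tppp3, a protein that binds microtubules and is also made outside ciliated cells, was at 157, 54.1 and 82.7 FPKM in F1-Control and 9.63, 6.59 and 11 in F1-HHcy (-3.19, SE 0.36, adjusted p = 0.00423). Over the 52 members with more than 3 fragments in F1-HHcy, the ratio of F1-Control to F1-HHcy means ran from 0.887 to 222 with a median of 11.2, and it was above 10 in 28 of them.

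The F1-Control libraries of Pd21 differed among themselves in a common order. Replicate 1 was highest, replicate 3 next and replicate 2 lowest for 44 of the 56 genes. Another 6 genes (Ccdc39, Cfap43, Cfap44, Cfap46, Cfap69 and Cfap100) had replicate 1 highest, replicate 2 next and replicate 3 lowest. In 4 more replicate 2 was highest and replicate 3 lowest, and in the other 2 replicate 3 was highest and replicate 2 lowest. Among the 49 genes without overlap, replicate 1 was 2.90 times replicate 2 in the median, with a range from 0.488 to 5.29. Leaving out any 1 library of Pd21 gave 34 or 35 lower genes. The filter was still set on all 6 libraries of the day, and 18 of the lower genes had passed it only through F1-Control. These fits therefore cannot show how far the count rests on a single library.

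Some genes of the program of multiciliated cells and some markers of other cell types were also lower in F1-HHcy at Pd21, while others were not. Foxj1, the transcription factor that switches on motile cilium genes, was at 99.1, 20.4 and 49.7 in F1-Control and at 0.371, 0.441 and 0.248 in F1-HHcy at Pd21, and its log2 difference was -5.14 (SE 0.47, adjusted p = 0.00201). Its F1-Control replicates had the order of most members. Of the 10 genes listed for the multiciliated program, 6 were tested and 3 were lower (Foxj1, Myb and Trp73), 2 with an adjusted p under 0.05. All 3 passed the filter only through F1-Control and so had to differ. Rfx3 passed in the same way, but its difference was too small for a call (-0.26, SE 0.17, adjusted p = 0.9996). Of the 2 tested genes that passed with libraries of both diets, 0 were lower. Ccno, which was not called, was at 98.2, 69.9 and 75.9 against 98.9, 74.8 and 95.8. The sum of the 10 was 218, 101 and 149 against 106, 80.2 and 102. Mcidas was listed at 0 in 2 of the 3 F1-HHcy libraries, and Cdc20b in 1. Of 6 markers of the secretory cells of the oviduct, 5 were lower, 2 of them with an adjusted p under 0.05, where 5.06% of all tested genes were lower. Pax8, 1 of these 2, passed the filter only through F1-Control and so had to differ. Of the 5 markers that passed with libraries of both diets, 4 were lower. The sum of the 6 was 297, 89.3 and 508 in F1-Control and 26.5, 11.1 and 30.2 in F1-HHcy. Ovgp1, the oviduct-specific glycoprotein, was at 216, 37.5 and 365 against 2.10, 0.370 and 1.12. Here replicate 3, and not replicate 1, was the highest F1-Control library, although replicate 2 was again the lowest. Of 6 markers of the surface epithelium, 4 were lower but 0 had an adjusted p under 0.05, with sums of 283 to 333 against 93.0 to 196. Lists for oocytes, granulosa cells, theca cells, endothelium and blood gave 0 calls on that day. Smooth muscle gave 2 of 4 lower, 1 with an adjusted p under 0.05. The part of these cells in the result was not tested.

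**Figure D3:**
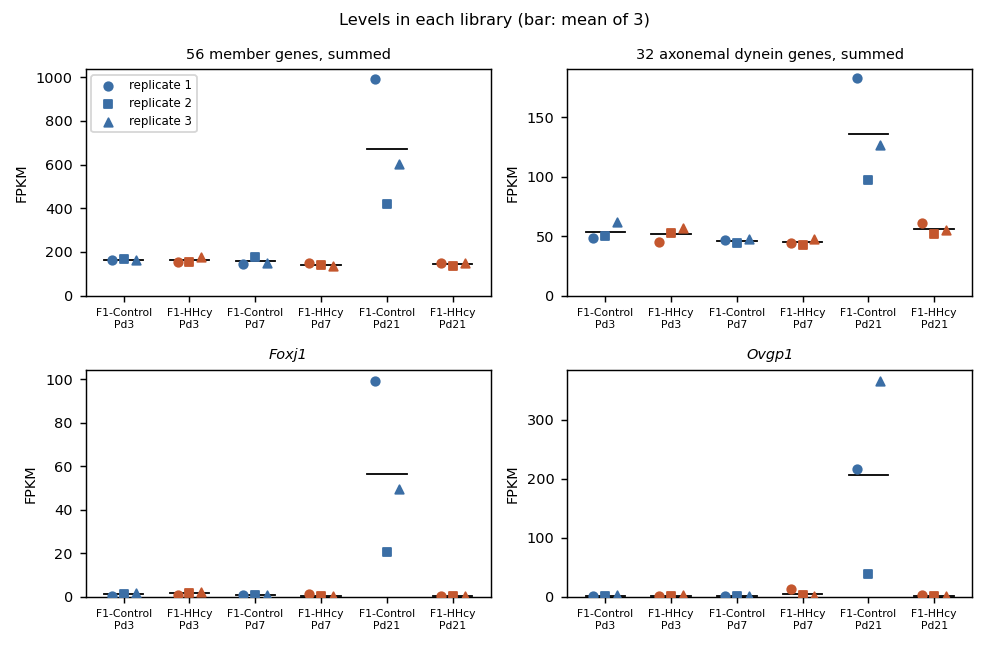
FPKM in each library for the sum of the 56 members, the sum of 32 axonemal dynein and assembly genes, Foxj1 and Ovgp1, with diet by colour (F1-Control blue, F1-HHcy orange), replicate by symbol and the group mean as a bar. The mean of F1-Control at Pd21 is the highest in all 4 panels, where replicate 1 is highest for the members, the dyneins and Foxj1, and replicate 3 is highest for Ovgp1.

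The dyneins themselves and the transport machinery that all cilia use were counted beside the members. Of 32 genes for axonemal dyneins and their assembly factors, 24 were tested at Pd21, 18 were lower and 0 were higher, and 11 had an adjusted p under 0.05, where 5.06% of all tested genes were lower. Of the 18 lower dynein genes, 15 passed the filter only through F1-Control and so had to differ. Of the 9 that passed with libraries of both diets, 3 were lower. Their sum was 183, 96.9 and 127 FPKM in F1-Control and 61.0, 51.6 and 55.3 in F1-HHcy. Of 35 genes for intraflagellar transport and the BBSome, which primary cilia need as well, all 35 were tested, 5 were lower and none reached an adjusted p under 0.05. Over each whole list, the median log2 difference was -0.75 for the dynein list and -0.33 for the transport list, beside -1.52 for the members.

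At Pd3 the diets gave 1 call among the 21 tested members, with 0 higher and 1 lower, where 5% of all 13277 tested genes were higher and 4.74% were lower. The gene was Cfap161, a protein inside the doublets, at 3.80, 5.30 and 4.29 FPKM in F1-Control and 2.03, 3.69 and 1.86 in F1-HHcy. Every F1-HHcy library was below the lowest F1-Control library, but the adjusted p missed the threshold (-0.66, SE 0.22, adjusted p = 0.136). The call was lost without F1-Control replicate 2 (-0.55), F1-HHcy replicate 1 (-0.57) or F1-HHcy replicate 3 (-0.52). By unadjusted p alone, 1 member was higher, Cfap97 at 0.30 on the log2 scale. The median over all 56 genes was -0.0038. F1-HHcy lay below all controls for 3 genes, above them for 7 and overlapped for 46. Of all genes tested at Pd3, 16.1% lay below and 11.8% above. Of 9 oocyte markers 5 were higher and 1 was lower at Pd3. Higher calls were also given to 2 of 3 tested granulosa markers, 3 of 4 endothelial markers and 1 of 4 smooth muscle markers, and 3 of 3 tested blood markers were lower. The markers of the surface epithelium and of the secretory cells gave 0 calls of 6 each, and 0 of 2 tested theca markers were called. The part of these cells in the differences at Pd3 was not tested.

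At Pd7, 23 members were tested, 1 was higher and 2 were lower, where 9.06% of all 13299 tested genes were higher and 7.35% were lower. Cfap161 was again lower, at 3.28, 3.83 and 2.10 FPKM in F1-Control and 1.07, 1.38 and 0.882 in F1-HHcy (-0.93, SE 0.20, adjusted p = 0.0170). Cfap54, a central apparatus protein, was at 6.10, 4.14 and 2.73 FPKM in F1-Control and 1.78, 1.96 and 1.01 in F1-HHcy (-1.01, SE 0.25, adjusted p = 0.0295). For both genes the diets did not overlap, and both were also called lower at Pd21. Tppp3 was higher, at 4.11, 4.74 and 8.96 FPKM in F1-Control and 12.6, 14.3 and 11.1 in F1-HHcy (1.04, SE 0.24, adjusted p = 0.0238), which is the opposite direction to Pd21. Cfap70, named after its values were seen, was at 0.460, 0.328 and 0.601 FPKM in F1-Control and 1.03, 1.09 and 1.10 in F1-HHcy. It passed the filter only through F1-HHcy, and it had no overlap and a difference under the size needed for a call (0.51, SE 0.15, adjusted p = 0.0522), while limma-voom called it higher. Foxj1, described above, was at 0.740, 0.635 and 0.861 in F1-Control and at 1.21, 0.0646 and 0.156 in F1-HHcy at Pd7, with overlapping groups. On that day 3 of 6 surface epithelium markers were lower, with sums of 356 to 553 in F1-Control and 158 to 344 in F1-HHcy, and of the 6 secretory markers 2 were lower and 1 was higher. Of 9 oocyte markers 6 were lower and 1 was higher, and all 5 theca markers and 4 of 5 granulosa markers were higher. The 3 blood markers tested were all lower, 1 of 4 smooth muscle markers was higher, and endothelium gave 0 calls of 4. Their part in these differences was not tested. The median over all 56 genes at Pd7 was -0.016.

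**Figure D4:**
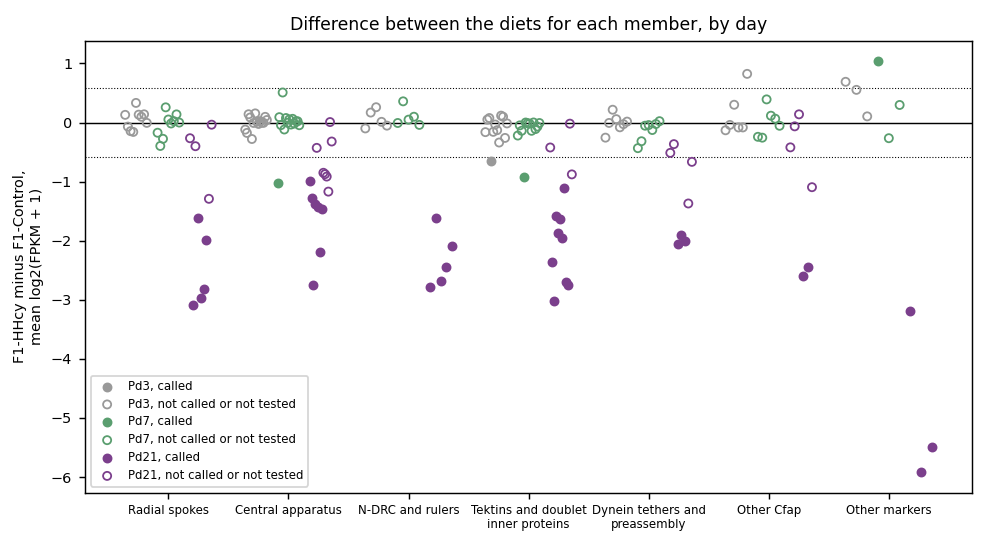
Difference between the diets in mean log2(FPKM + 1) for each of the 56 genes, by role (x axis) and day (colour), with filled points for genes called on that day and dotted lines at a difference of 0.58 in either direction. Points of Pd3 and Pd7 lie around 0, and most points of Pd21 lie below the lower line.

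Whether the diet effect changed from day to day was tested in 1 limma model of all 18 libraries, in which 44 members passed the filter. That filter needed 1 FPKM in 3 of the 18 libraries, which the 3 F1-Control libraries of Pd21 could meet alone. Hydin and Rsph4a, for example, passed in this way and so had to differ. The counts below that involve Pd21 hold such genes. Between Pd21 and Pd7 it differed for 31 members with an adjusted p under 0.05, against 3.89% of all 14607 genes, and the effect at Pd21 was the lower one in all 31. Between Pd21 and Pd3 it differed for 32 members, against 4.59% of all genes, again with the lower effect at Pd21. Between Pd7 and Pd3 it differed for 0 members with an adjusted p under 0.05, against 0.411% of all genes. At an unadjusted p under 0.05 with a log2 difference past 0.58 there were 2 of 44. The share of all genes at that looser threshold was not counted, so the 2 cannot be set against it. The extra gene between Pd21 and Pd3 was Cfap58, named after its values were seen, which was at 0.0340, 0.0250 and 0.0681 FPKM in F1-Control and 0.750, 0.10 and 2.26 in F1-HHcy at Pd3. For Tekt1 the change of the effect from Pd7 to Pd21 was -2.88 (SE 0.36, adjusted p = 1.10e-04 from limma). Tppp3, which changed direction, gave -4.23 (SE 0.51, adjusted p = 8.12e-05). For the pair that was already lower at Pd7, no such change was found, with 0.024 for Cfap54 (SE 0.42, adjusted p = 0.979) and -0.65 for Cfap161 (SE 0.38, adjusted p = 0.362). Both days and both batches differ in the comparisons that involve Pd21, and they cannot be told apart.

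Between Pd3 and Pd7, which share a batch, few members changed with age. In F1-Control, 0 were higher and 1 was lower at Pd7, where 6.76% of all 14607 genes were higher and 6.89% were lower. The gene was Cfap53, an inner protein of the doublet, at 1.83, 2.84 and 2.54 FPKM at Pd3 and 1.10, 1.19 and 0.768 at Pd7 (log2 difference Pd7 minus Pd3 of -0.75, SE 0.31, adjusted p = 0.128). This call was lost without F1-Control replicate 2 or 3 of Pd3 or replicate 3 of Pd7. In F1-HHcy, 1 was higher and 3 were lower, against 5.76% and 6.03% of all genes. Cfap54 was at 2.58, 5.52 and 6.76 FPKM at Pd3 and 1.78, 1.96 and 1.01 at Pd7, and was the only 1 of the 4 with an adjusted p under 0.05 (log2 difference -1.15, SE 0.30, adjusted p = 0.0364). Cfap161 and Cfap58 were the other lower genes. Cfap161 was not called without F1-HHcy replicate 2 of Pd3 or replicate 3 of Pd7, nor was Cfap58 without replicate 3 of Pd3. Cfap58 had 2.26 FPKM in 1 library of Pd3 against 0.0351 to 0.0726 in the 3 libraries of Pd7. Tppp3 was the higher gene (0.77, SE 0.36, adjusted p = 0.206). Its call was lost with no filter on low values and in 9 of the 18 fits that left out 1 library, with unadjusted p-values from the limma model of 0.0512 to 0.188 in those 9. The 9 libraries were F1-HHcy replicates 2 and 3 of Pd3, all 3 F1-HHcy replicates of Pd7, F1-HHcy replicate 1 of Pd21, F1-Control replicate 2 of Pd3 and of Pd7 and F1-Control replicate 3 of Pd21.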

How the data were processed

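Ovarian poly-A RNA of F1 females was sequenced in 18 libraries, 3 for each of 6 groups of maternal diet and day. The submitters' processing notes name FastQC 0.11.9, Trimmomatic 0.39, STAR 2.7.9a, featureCounts 2.0.1, Subread and DESeq2 1.36.0 with the builds GRCm38 and mm10, and whether counting used the strand is not given in the sources used here. The authors made and deposited FPKM values, normalized for gene length and library, although they name no unit. FPKM was inferred because, with 1 length for each gene and 1 factor for each library, the values of all 27294 genes above 0 in 3 or more libraries became whole fragment numbers (tolerance 0.05). These fragments gave the depth of 33630547 to 39399215 per library, at which 3 fragments on a member amount to at most 0.11 FPKM at Pd21.

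Diets were compared per day in limma 3.58.1 (R 4.3.3) using log2(FPKM + 1) and a variance that follows the mean level, after removing genes that reached 1 FPKM in fewer than 3 of 6 libraries. All genes were fitted, adjusted p-values (Benjamini-Hochberg) are over all of them, and the code was tested on simulated data. Differences of the diet effect and Pd7 against Pd3 came from 1 model of all 18 libraries. Members were sorted into roles by general knowledge. Of each role, the 3 genes with the highest mean and the 3 with the smallest p at Pd21 are named with values, as are members called at Pd3 or Pd7; others named were chosen for their values. The members, roles and marker lists were chosen with earlier results of these data known. Replicate numbers of the titles were not treated as pairs. Same-numbered libraries of a day deviated from their group means with correlations of -0.34 to 0.087, which with 3 libraries per group cannot exclude a pairing. Alternatives were a pseudocount of 0.1, no filter, all 18 libraries in 1 model, median-ratio scaling, limma-voom on the recovered fragments, a replicate block, an adjusted threshold, and each library left out. All libraries entered the reported values. Figures were made with Python 3.11.15, pandas 2.3.3 and matplotlib 3.10.9.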

Additional observations from a re-analysis of the deposited data

Results flagged for a closer look

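The difference between the diets was not the same on all days, by a test of that difference in 1 limma model of the 18 libraries. It differed between Pd21 and Pd7 for 31 of 44 tested members and between Pd21 and Pd3 for 32, with an adjusted p under 0.05. The F1-HHcy ovaries were lower relative to F1-Control at Pd21 in each of these cases. Of the genes tested, 18 had passed the filter of Pd21 only through F1-Control, so these counts hold genes that were bound to be high in that group. Pd21 also formed a batch of its own, and age and batch cannot be told apart here. With 3 libraries per group, no search for single outlying libraries was made.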

How the results depend on the processing

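The count of lower members at Pd21, 34, was 43 without a filter, 35 with all 18 libraries in 1 model, 30 with an adjusted threshold and 34 to 35 with 1 library left out. Of 504 values of single tested members under the alternatives for that day, 503 stayed on the same side of the threshold, 1 was newly called (without F1-Control replicate 2) and 0 changed direction. Fits with 1 library left out kept the filter of all 6 libraries, so genes that passed only through F1-Control remained in them. The median over all members at Pd21 was -2.72 with a pseudocount of 0.1, in place of -1.52. The few calls of the earlier comparisons moved more. At Pd3, all 18 libraries in 1 model gave 1 higher member in place of 0 (Cfap58), and leaving out 1 library gave 0 to 1. The 1 lower member at Pd3 became 2 with limma-voom, 0 with an adjusted threshold and 0 to 1 with 1 library left out. The 1 higher member at Pd7 became 2 with a pseudocount of 0.1 and 3 with limma-voom. Between Pd3 and Pd7 in F1-Control, a pseudocount of 0.1 gave 1 higher in place of 0 and 3 lower in place of 1, and leaving out 1 library gave 0 to 1 lower. In F1-HHcy, the 1 higher member became 2 with a pseudocount of 0.1, 0 without a filter and 0 to 1 with 1 library left out, and the 3 lower became 2 to 6, with 6 without F1-HHcy replicate 1 of Pd3. The counts of members with a different diet effect were 30 to 32 (Pd21 and Pd7) and 29 to 32 (Pd21 and Pd3) with 1 library left out. The cause of these changes was not tested. With the replicate number as a block (replicate block), 34 members were lower at Pd21 and every other count of members stayed as it was. Whether the numbers pair the libraries is not known. Depth limits the genes under 1 FPKM, and intervals for counting error do not cover the spread between ovaries.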
